A study of Ovis aries with 10 samples.

Results

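The genes of the cytosolic ribosomal proteins were followed in sheep hypothalamus. They were taken by gene symbol, as RPL or RPS with a number and at most one closing letter A, X or L, together with RPLP0, RPLP1, RPLP2 and RPSA. This gave 77 of the 33775 genes in the count table, 45 of the large and 32 of the small subunit. The cytosolic ribosome is built from a small and a large subunit, each a scaffold of ribosomal RNA that carries a fixed set of small, basic proteins. One copy of nearly every protein goes into each ribosome, so cells keep the mRNAs of this family at high and matched levels, and the mRNAs share a pyrimidine-rich start (the TOP tract) through which mTORC1 controls their translation. In the brain these mRNAs are found in all cell types, so the family was followed in the whole tissue block and not as a marker of a single kind of neuron. Their levels in each cell type were not measured here.

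The data were RNA sequencing counts from the mediobasal hypothalamus, the ventral region that holds the arcuate nucleus, of Ile-de-France ewes, all adult, in the luteal phase, when the corpus luteum secretes progesterone, or in the follicular phase, when oestradiol rises before ovulation. RNA of 20 ewes, 10 in each phase, was combined at random within a phase into equimolar mixes of 2 ewes, which gave 5 luteal and 5 follicular libraries. Each library holds its own pair of ewes, and the replicate error below is that between pairs.

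All but 1 of the 77 genes had enough reads to be tested, and these 76 all averaged lower in luteal than in follicular libraries. Their log2 fold changes of luteal over follicular ran from -0.78 for RPS26 to -0.09 for RPL10, with a median of -0.49, against a median of 0.01 over the 18276 genes tested. Of all genes tested 48.5% were lower in luteal libraries. None of the 76 passed the edgeR quasi-likelihood test after Benjamini-Hochberg adjustment over all genes at a threshold of 0.05 (adjusted p from 0.426 to 0.750), and the background was the same, since edgeR called 0.0% of all genes. At an unadjusted edgeR p under 0.05 stood 20 of the 76, or 26.3%, all lower in luteal libraries, against 7.12% of all genes tested. Other lists taken up below also held many such genes. They were 30 of 76 genes of the mitochondrial ribosome, 25 of 56 of the respiratory chain and ATP synthase and 9 of 25 of ribosome biogenesis. Among TOP mRNAs and factors it was 2 of 20, and among genes of mTORC1 and TOP control 1 of 16. DESeq2 and limma-voom also called 0 of the ribosomal protein genes after adjustment. DESeq2 called 0.165% of the genes to which it gave an adjusted p, and limma-voom called 0.0% of all genes. At an unadjusted p under 0.05 and lower in luteal libraries, DESeq2 placed 31 of 77 members, against 6.42% of the 25729 genes to which it gave a p. By limma-voom it was 4 of 76 members, near the share of 4.8% over the 18276 genes. The members share the same 10 libraries, so these counts describe 1 shared shift and not 76 separate ones.

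The size of this shift depended on which libraries were in the fit. Ribosomal protein genes took 6.68%, 5.79%, 5.21%, 7.08% and 4.87% of the reads in luteal libraries 1 to 5 and 9.18%, 6.09%, 9.18%, 8.07% and 4.70% in follicular libraries 1 to 5. The means were 5.92 ± 0.94% in luteal and 7.45 ± 1.98% in follicular libraries (SD, n = 5 per phase). Follicular 1, 3 and 4 lay above every luteal library, follicular 2 lay inside the luteal range, and follicular 5 had the lowest share of all 10. For none of the 76 genes did all luteal values lie below all follicular values (0.514% of all genes tested), and for 37 of them, or 48.7%, all 5 luteal values lay inside the follicular range, against 21.2% of all genes. Without follicular 1 and 3, which held the highest family values of their phase, so that a smaller difference follows from the choice, the median log2 fold change was -0.18, 71 of the 76 genes were lower and 0 had an unadjusted edgeR p under 0.05 (1.47% of all genes). Without follicular 5, the lowest library of its phase, the median was -0.65 and 68 genes had an unadjusted edgeR p under 0.05 (16.2% of all genes).

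**Figure D1:**
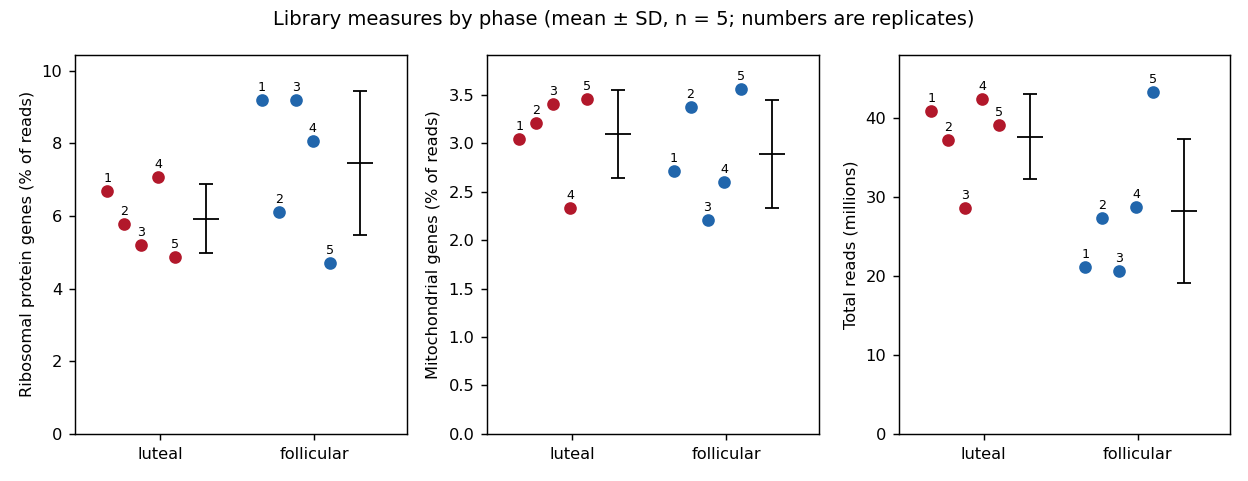
Percent of each library's reads on the 77 ribosomal protein genes (left), percent on genes of the mitochondrial chromosome (centre) and total reads (right). Points are libraries labelled by replicate number and bars are mean ± SD (n = 5 per phase); follicular 1, 3 and 4 stand above the luteal libraries in the left panel, and follicular 5 at 4.70% stands below them.

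Depth, mitochondrial reads and some markers also differed between these libraries. Totals ran from 28571863 to 42358557 reads in luteal and from 20644992 to 43193449 reads in follicular libraries, and follicular 1 and 3, with the highest ribosomal protein shares, were the shallowest. Follicular 5, the deepest, had the lowest share, at 4.70%. Luteal 3 and follicular 4 had similar totals of 28571863 and 28669577 reads and ribosomal protein shares of 5.21% and 8.07%. Follicular 2, at 27292984 reads, was also near luteal 3 in depth, and its share was 6.09%. Luteal 4 and follicular 5, at 42358557 and 43193449 reads, differed the other way, with shares of 7.08% and 4.70%. Genes of the mitochondrial chromosome took 2.33% to 3.46% of reads in luteal and 2.21% to 3.56% in follicular libraries, lowest in follicular 3 and luteal 4 and highest in follicular 5. Leaving these genes out of the denominator gave ribosomal protein shares of 6.11 ± 0.94% in luteal and 7.66 ± 2.01% in follicular libraries (SD, n = 5 per phase). Markers of the region were present: POMC, AGRP, NPY, KISS1, TAC3, GHRH, NR5A1 and TBX3 summed to 1277 to 1787 CPM in luteal and 1288 to 2193 CPM in follicular libraries, where CPM are counts relative to the TMM-scaled library total. The 6 oligodendrocyte markers tested were all lower in luteal libraries without passing edgeR, at summed levels of 509 to 1281 CPM against 827 to 1400 CPM in follicular libraries. All 5 choroid plexus markers tested were higher in luteal libraries, at sums of 31.0 to 109 CPM against 20.0 to 53.0 CPM in follicular libraries. TTR in luteal 4 alone gave 94.3 CPM of the 109 CPM. FOLR1 was nearly level (log2 fold change 0.04, SE 0.27), and KCNJ13 averaged only 0.44 CPM in luteal and 0.19 CPM in follicular libraries. The 5 ependyma and tanycyte markers, 3 of them higher, summed to 1088 to 1328 CPM in luteal and 1015 to 1077 CPM in follicular libraries. VIM made up most of that sum, and the other 4, 2 of them higher, summed to 116 to 190.0 CPM in luteal and 126 to 210.0 CPM in follicular libraries. Markers of neurons, astrocytes, microglia, endothelium and pituitary went both ways, with overlapping sums. The 6 pituitary markers tested, 3 lower and 3 higher, summed to 2032 to 4260 CPM in luteal and 2685 to 4287 CPM in follicular libraries. PRL alone ran from 144 CPM in follicular 5 to 2721 CPM in luteal 3. CGA had a log2 fold change of -0.60 (SE 0.17) and FSHB of 1.07 (SE 0.475), and neither passed edgeR after adjustment. Of 5 red blood cell markers listed, 4 were found among the counted genes, namely HBB, HBM, AHSP and ALAS2, and the other was not measured. The sum of those found was near 0, at no more than 1.01 CPM in luteal and 1.70 CPM in follicular libraries. ALAS2 had 0 reads in every library. The part of depth and of cell makeup in the ribosomal protein result was not tested, and in tissue RNA fewer cells of a type and less RNA per cell cannot be told apart.

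The shift from library to library was common to nearly the whole family. After each gene was centred on its own mean, the family median stood at 0.04, -0.24, -0.45, 0.18 and -0.58 on the log2 scale in luteal libraries 1 to 5 and at 0.63, -0.08, 0.67, 0.44 and -0.57 in follicular libraries 1 to 5. Of the 76 genes 73 had their highest value in follicular 1 or 3 and 69 had their lowest in luteal 5 or follicular 5. Within the luteal phase alone, luteal 4 was above its phase mean for 76 of 76 genes and luteal 1 for 73, while luteal 3 and luteal 5 were above it for 0. Within the follicular phase, follicular 3 and 4 were above the phase mean for 76 genes and follicular 1 for 75, while follicular 2 was above it for 1 and follicular 5 for 0. Members therefore moved together within each phase as well as between the phases. How many of all genes tested showed the same order of libraries was not counted. The pattern was not confined to the family, since 62 genes outside it lay closer to the family median than the median member did. These were a small part of the 18276 genes tested.

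**Figure D2:**
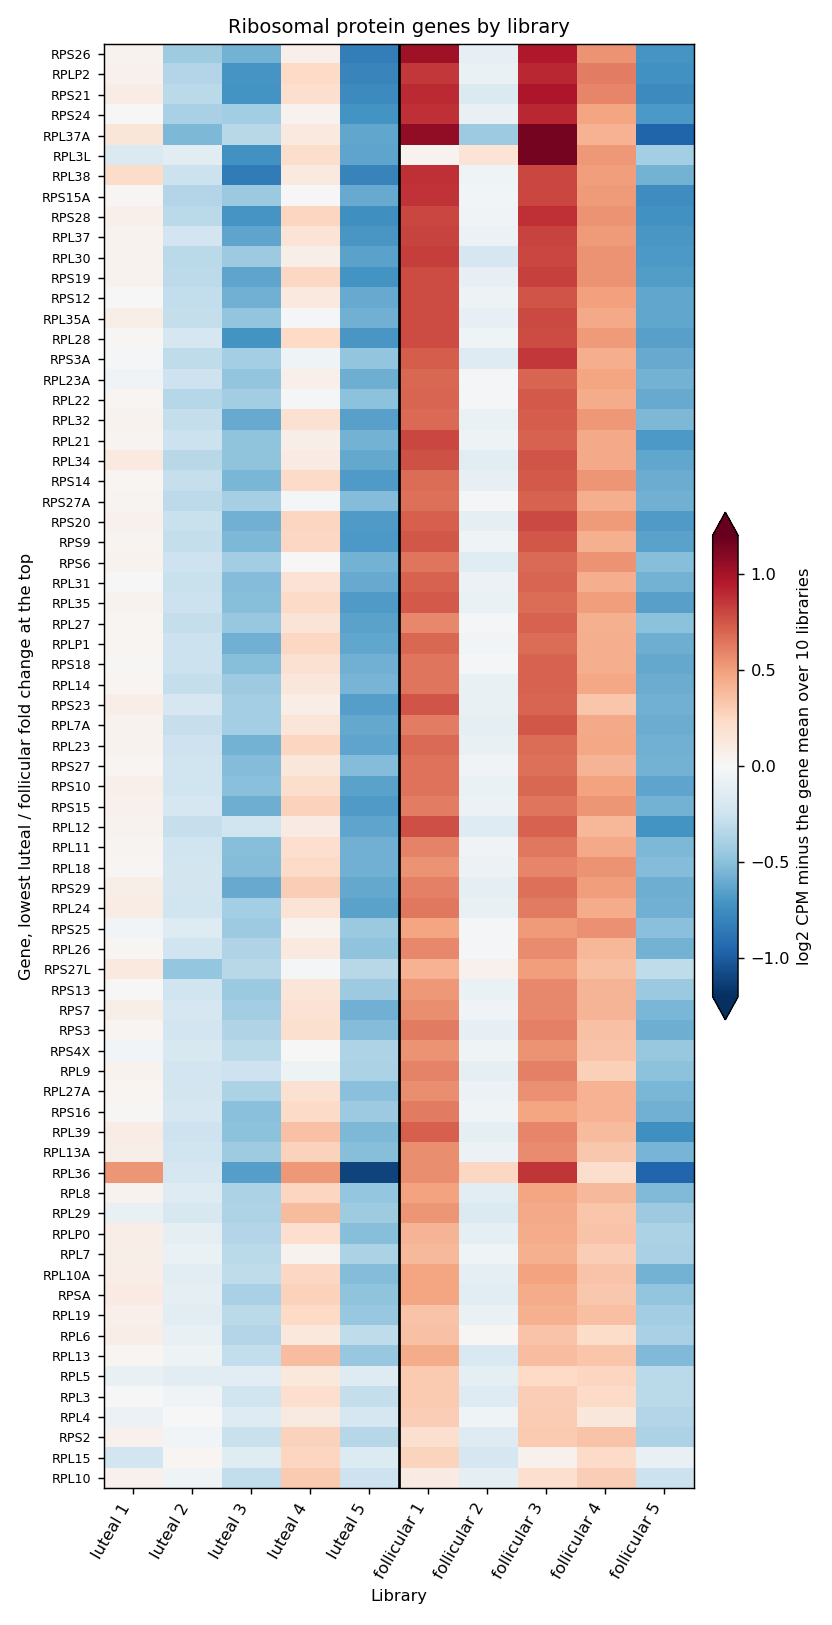
Log2 CPM of 71 of the tested ribosomal protein genes in each library, centred on the gene's mean over 10 libraries, luteal libraries on the left and follicular on the right. Genes run from the lowest luteal over follicular fold change at the top (RPS26, -0.78) to the highest at the bottom (RPL10, -0.09); whole columns share a colour, red in follicular 1, 3 and 4 and blue in luteal 3, luteal 5 and follicular 5.

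The spread within a phase was wider in follicular libraries. The SD of log2 CPM over 5 libraries had a median over the family of 0.32 in luteal and 0.54 in follicular libraries, against 0.27 in luteal and 0.31 in follicular libraries over all genes tested. It was larger in follicular libraries for 74 of the 76 genes, against 60.6% of all genes. The lowest SD in luteal libraries was 0.11, for RPL5, and the highest 0.72, for RPL36. In follicular libraries the lowest was 0.20, for RPL15, and the highest 0.93, for RPL37A. The 10 genes with the lowest fold changes had median SDs of 0.39 in luteal and 0.68 in follicular libraries, and the 10 with the highest had 0.23 and 0.30, in the same order. RPL36, with the widest luteal spread, was not among the 10 with the lowest fold changes.

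At the low end of the range stood genes of both subunits. A log2 fold change below -0.6 was found for 14 genes, 6 of the large and 8 of the small subunit, among them RPS26, RPS21, RPLP2, RPS24, RPL37A, RPL3L, RPL38, RPS15A, RPS28, RPL37, RPL30, RPS19 and RPS12. The 14 had edgeR adjusted p from 0.426 to 0.432. A value below -0.5 was found for 34 genes or 44.7%, against 6.64% of all genes tested. RPS26, whose protein lies at the mRNA exit channel of the small subunit, had 304, 220, 199, 308 and 166 CPM in luteal libraries 1 to 5 and 598, 275, 572, 428 and 181 CPM in follicular libraries 1 to 5. Follicular 1, 3 and 4 were above all luteal values, while follicular 2 and 5 fell among them. RPS26 averaged 239 ± 63.8 CPM in luteal and 411 ± 182 CPM in follicular libraries (SD over 5 libraries), a log2 fold change of -0.78 (SE 0.31; edgeR adjusted p = 0.426). Its unadjusted p in the edgeR fit over all genes, 0.0259, was the smallest of the family.

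RPS24, a small-subunit protein that takes part in rRNA processing, averaged 777 ± 168 CPM in luteal and 1244 ± 513 CPM in follicular libraries (log2 fold change -0.68, SE 0.28). RPS21, another protein of the small subunit, averaged 357 ± 109 CPM in luteal and 576 ± 255 CPM in follicular libraries (log2 fold change -0.69, SE 0.32). RPL23A, which lies by the exit of the peptide tunnel, averaged 1410.0 ± 265 CPM in luteal and 2089 ± 691 CPM in follicular libraries (log2 fold change -0.57, SE 0.23), and RPL22, an RNA-binding protein of the large subunit, 319 ± 53.1 CPM and 472 ± 162 CPM in the same order (log2 fold change -0.57, SE 0.23). The phase means differed by less than the SD of the follicular libraries for these genes, as for 75 of the 76 tested, RPS27L being the exception. RPS19, RPS24, RPS26 and RPL35A are among the genes whose loss of one copy causes Diamond-Blackfan anaemia in humans, as are RPL5 and RPL11, and these 6 ran from -0.78 for RPS26 to -0.17 for RPL5.

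At the other end most genes were of the large subunit. A log2 fold change above -0.2 was found for 7 genes, 6 of the large subunit (RPL13, RPL5, RPL3, RPL4, RPL15 and RPL10) and RPS2 of the small one, with edgeR adjusted p from 0.521 to 0.750. RPL10, which joins the large subunit late and is needed for its release for translation, had 542, 503, 426, 649 and 439 CPM in luteal libraries 1 to 5 and 559, 483, 602, 641 and 437 CPM in follicular libraries 1 to 5. The phases overlapped almost fully, and luteal 4 held the highest value of all 10. RPL10 averaged 512 ± 90.2 CPM in luteal and 544 ± 84.1 CPM in follicular libraries (SD over 5 libraries), a log2 fold change of -0.09 (SE 0.14; edgeR adjusted p = 0.750).

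RPL15, a core protein of the large subunit, had 270, 321, 285, 377 and 282 CPM in luteal libraries 1 to 5 and 380, 274, 328, 370 and 296 CPM in follicular libraries 1 to 5. Its highest library was 1.41 times its lowest, the smallest such ratio in the family, where the median ratio was 2.45 and the largest, for RPL37A, 4.33. RPL3 and RPL4, large proteins that reach into the core of the large subunit, averaged 1075 ± 148 CPM and 1440.0 ± 126 CPM in luteal libraries and 1199 ± 230 CPM and 1590.0 ± 286 CPM in follicular libraries. RPS2, at the mRNA entry of the small subunit, averaged 2527 ± 444.2 CPM in luteal and 2776 ± 571 CPM in follicular libraries (log2 fold change -0.14, SE 0.17). Without follicular 1 and 3 the log2 fold changes of RPL3, RPL4 and RPL13 were 0.01, 0.02 and 0.03, while RPL10, RPL15, RPL5 and RPS2 stayed lower in luteal libraries, at -0.02, -0.03, -0.03 and -0.01.

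**Figure D3:**
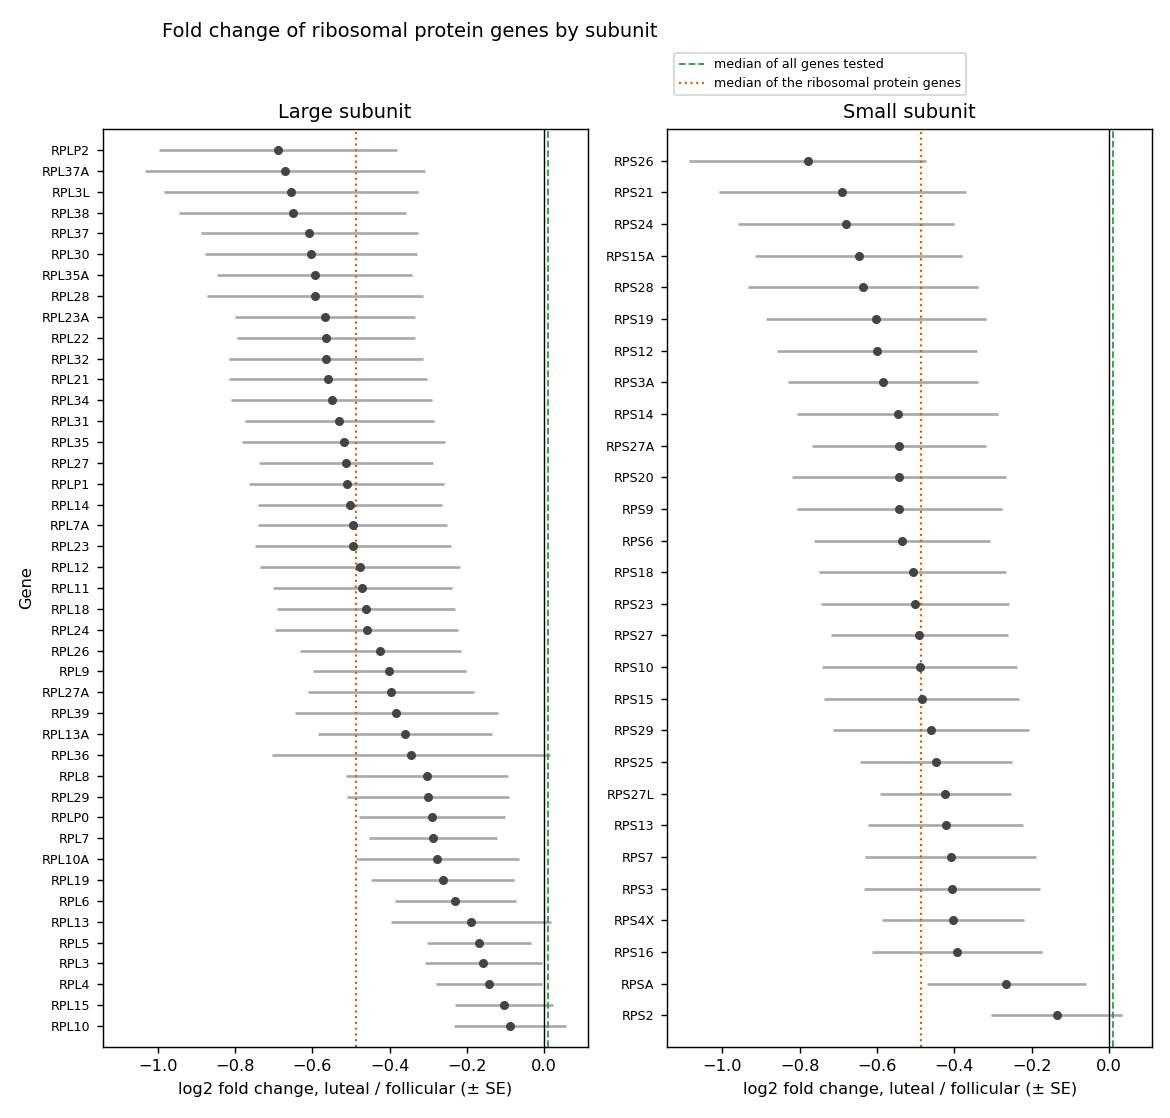
Log2 fold change of luteal over follicular with its standard error for 71 of the tested ribosomal protein genes, 43 of the large subunit (left) and 28 of the small subunit (right), sorted within each panel. The dashed line is the median of all 18276 genes tested (0.01) and the dotted line the median of the family (-0.49); all 71 points lie below 0, from RPS26 to RPL10.

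RPL5 and RPL11 bind 5S rRNA together and can hold the p53 ligase MDM2 outside the ribosome, yet they sat apart in the family. RPL5 averaged 928 ± 76.4 CPM in luteal and 1044 ± 190 CPM in follicular libraries (log2 fold change -0.17, SE 0.13). RPL11 averaged 778 ± 182 CPM in luteal and 1078 ± 332 CPM in follicular libraries (log2 fold change -0.47, SE 0.23) and followed the family profile among the 5 most closely. The difference between the 2 genes was not tested.

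The 3 proteins of the stalk, which recruits translation factors, showed a similar spread. RPLP0, the base of the stalk, had 1215, 1061, 902, 1325 and 806 CPM in luteal libraries 1 to 5 and 1525, 1060.0, 1564, 1456 and 886 CPM in follicular libraries 1 to 5 (log2 fold change -0.29, SE 0.19). RPLP2, which binds RPLP0 as a pair with RPLP1, had 700.0, 527, 412, 795 and 388 CPM in luteal and 1214, 638, 1259, 1033 and 407 CPM in follicular libraries 1 to 5 (log2 fold change -0.69, SE 0.31). For RPLP2 follicular 1, 3 and 4 stood above every luteal library, as they also did for RPLP0 by a smaller margin. RPLP1 averaged 2301 ± 607 CPM in luteal and 3278 ± 1084 CPM in follicular libraries (log2 fold change -0.51, SE 0.25).

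Across the subunits the family was nearly level. The median log2 fold change was -0.47 over 44 genes of the large subunit and -0.50 over 32 genes of the small subunit. Large-subunit reads were 1.34 ± 0.02 times small-subunit reads in luteal libraries and 1.30 ± 0.03 times in follicular libraries (SD over 5 libraries), with ranges of 1.31 to 1.36 and 1.27 to 1.34. RPS6, the small-subunit protein that S6 kinases phosphorylate, had a log2 fold change of -0.54 (SE 0.23), with 622 ± 111 CPM in luteal and 901 ± 299 CPM in follicular libraries. RPSA, a small-subunit protein also known as the laminin receptor, averaged 1117 ± 248 CPM in luteal and 1343 ± 354 CPM in follicular libraries (log2 fold change -0.27, SE 0.21). RPS27A, made as a fusion with ubiquitin, averaged 893 ± 151 CPM in luteal and 1302 ± 429 CPM in follicular libraries (log2 fold change -0.54, SE 0.23).

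The remaining genes filled the middle of the range. Log2 fold changes of -0.6 to -0.5 were found for 20 genes, namely RPL35A, RPL28, RPS3A, RPL23A, RPL22, RPL32, RPL21, RPL34, RPS14, RPS27A, RPS20, RPS9, RPS6, RPL31, RPL35, RPL27, RPLP1, RPS18, RPL14 and RPS23. Values of -0.5 to -0.4 were found for 21 genes, among them RPL7A, RPL23, RPS27, RPS10, RPS15, RPL12, RPL11, RPL18, RPS29, RPL24, RPS25, RPS27L, RPL26, RPS13, RPS7, RPS3, RPS4X and RPL9. A further 14 lay between -0.4 and -0.2, among them RPL27A, RPS16, RPL39, RPL13A, RPL36, RPL8, RPL29, RPLP0, RPL7, RPL10A, RPSA, RPL19 and RPL6. By these steps the median ratio of the highest to the lowest library was 3.07 below -0.6, then 2.61, 2.3 and 2.04, and 1.56 above -0.2. The ratio includes the difference between phases that sets the steps, so this order is in part built in.

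The family profile, the median of the centred values in each library, was closely followed by RPL14, RPL11, RPL24 and RPS18, whose distance from it (the SD over 10 libraries of the gene minus the profile, on the log2 scale) was 0.03 to 0.04. The distance was under 0.1 for 40 of the 76 genes and over 0.2 for 11. RPL14, a protein of the large subunit, had 734, 591, 534, 794 and 491 CPM in luteal libraries 1 to 5 and 1126, 679.6, 1177, 995 and 476.5 CPM in follicular libraries 1 to 5 (log2 fold change -0.50, SE 0.24), so that follicular 1, 3 and 4 were above every luteal library and follicular 5 was the lowest. The genes farthest from the profile were RPL15 (0.37), RPL36 (0.34), RPL37A (0.30), RPL3L (0.30) and RPL10 (0.30). RPL15 and RPL10 varied less than the profile, as given above, and RPL37A and RPL36 more.

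RPL37A, a zinc-binding protein of the large subunit, had 931, 580, 669, 915 and 545 CPM in luteal libraries 1 to 5 and 1755, 620, 1866, 1123 and 431 CPM in follicular libraries 1 to 5 (log2 fold change -0.67, SE 0.36; edgeR adjusted p = 0.432). Follicular 1 and 3 were far above the other 8 libraries, and follicular 5 was the lowest of all. Without follicular 1 and 3 its log2 fold change was 0.01. RPL36, a protein of the large subunit, had 393, 236, 172, 390 and 126 CPM in luteal libraries 1 to 5 and 399, 324, 494, 315 and 141 CPM in follicular libraries 1 to 5 (log2 fold change -0.34, SE 0.36; edgeR adjusted p = 0.611). Here luteal 1 and 4 stood with the higher follicular libraries, and luteal 5 and follicular 5 were the lowest. Without follicular 1 and 3 the value for RPL36 was 0.02.

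**Figure D4:**
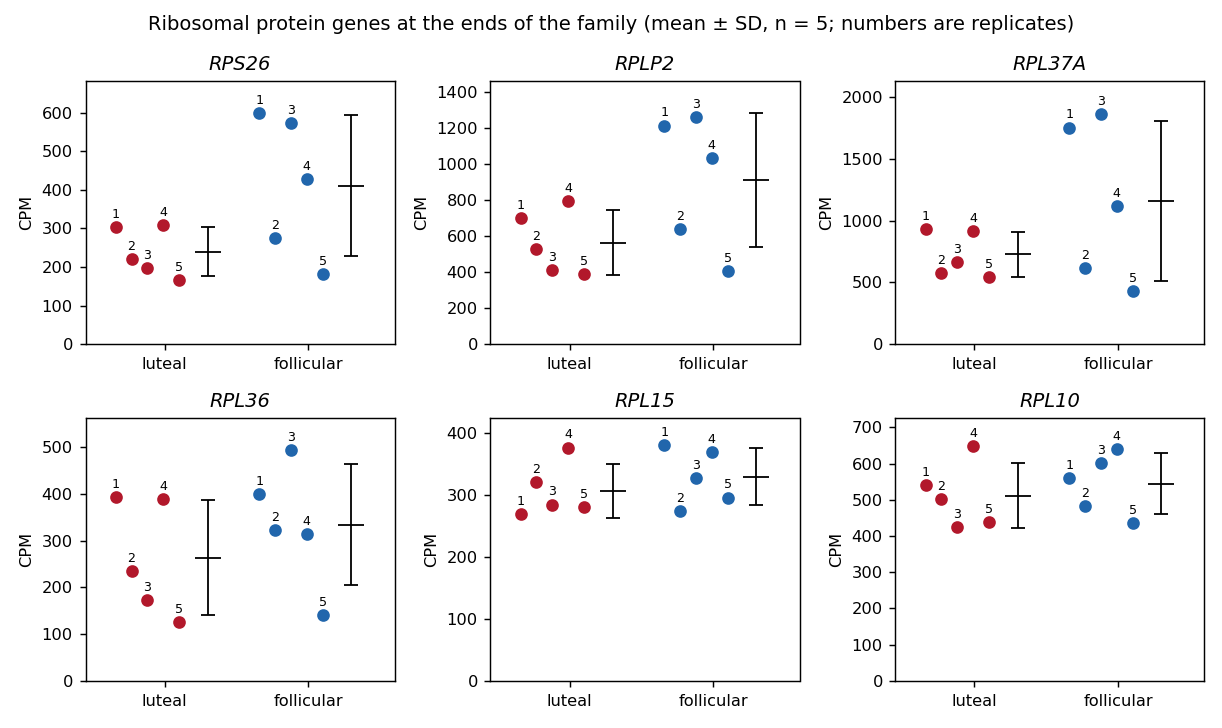
CPM in each library for 3 genes with large differences between libraries (RPS26, RPLP2 and RPL37A), for RPL36, and for RPL15 and RPL10, which varied least with the family. Points are libraries labelled by replicate number and bars are mean ± SD (n = 5 per phase); in the first 3 panels follicular 1, 3 and 4 stand above every luteal library, while in the RPL15 and RPL10 panels the phases overlap.

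The paralogues with restricted expression, RPL10L and RPL3L, were low or absent, while RPS27L had 775 to 1402 reads in every library. RPL10L, a copy of RPL10 known from testis, had 1 read in luteal 1 and 1 read in follicular 4 and none elsewhere, and was not tested. RPL3L, the copy of RPL3 made in striated muscle, was counted with 17 to 45 reads in luteal and 19 to 41 reads in follicular libraries. It averaged 0.78 ± 0.22 CPM in luteal and 1.26 ± 0.57 CPM in follicular libraries (log2 fold change -0.65, SE 0.33; edgeR adjusted p = 0.428), and follicular 3, at 2.18 CPM, was the highest. RPS27L, a p53-inducible copy of RPS27, had 34.2, 22.8, 24.97, 31.3 and 25.03 CPM in luteal libraries 1 to 5 and 42.3, 32.7, 44.8, 40.6 and 25.5 CPM in follicular libraries 1 to 5. Luteal 2, 3 and 5 were below every follicular library, which no other member showed for so many, and the log2 fold change was -0.42 (SE 0.17; edgeR adjusted p = 0.426). RPS27 itself averaged 406 ± 85.9 CPM in luteal and 571 ± 184 CPM in follicular libraries (log2 fold change -0.49, SE 0.23). 

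Pairs whose symbols differ only by a closing A encode unrelated proteins, and their genes were compared as neighbours in name only. RPL7A, among the 5 members with the most reads, averaged 2135 ± 464 CPM in luteal and 3010.0 ± 1037 CPM in follicular libraries (log2 fold change -0.50, SE 0.25), and RPL7 had a log2 fold change of -0.29 (SE 0.17). RPS3A had a log2 fold change of -0.59 (SE 0.25) and RPS3, which has a DNA repair role outside the ribosome, -0.41 (SE 0.23). RPS15A stood at -0.65 (SE 0.27) and RPS15 at -0.48 (SE 0.25), RPL35A at -0.59 (SE 0.25) and RPL35 at -0.52 (SE 0.26), and RPL37 at -0.61 (SE 0.28). RPL27A stood at -0.40 (SE 0.21) and RPL27 at -0.51 (SE 0.23), RPL13A at -0.36 (SE 0.22) and RPL13 at -0.19 (SE 0.21), RPL23 at -0.49 (SE 0.25) and RPL10A at -0.28 (SE 0.21). The differences within pairs were not tested, and the SE of a single gene is not their error, since both genes were measured in the same libraries.

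Some ribosomal proteins carry other names. FAU, which encodes RPS30 fused to a ubiquitin-like protein, averaged 601 ± 190 CPM in luteal and 870 ± 318 CPM in follicular libraries (log2 fold change -0.53, SE 0.29). RACK1, a scaffold on the small subunit, averaged 972 ± 140 CPM in luteal and 1060.0 ± 190 CPM in follicular libraries (log2 fold change -0.12, SE 0.15). RPL36A was counted under the identifier LOC101105982, which the RefSeq gene table of assembly ARS-UI_Ramb_v3.0 names RPL36A, and so fell outside the choice by symbol. It had 313, 265, 179, 354 and 183 CPM in luteal libraries 1 to 5 and 594, 255, 516, 428 and 175 CPM in follicular libraries 1 to 5 (log2 fold change -0.60, SE 0.32; edgeR adjusted p = 0.431) and follicular 1, 3 and 4 were again above every luteal library. Its copy RPL36AL averaged 297 ± 87.0 CPM in luteal and 468 ± 191 CPM in follicular libraries (log2 fold change -0.66, SE 0.29). RPL26L1, RPL7L1 and RPL22L1, relatives of RPL26, RPL7 and RPL22, had log2 fold changes of -0.36 (SE 0.15), -0.23 (SE 0.16) and -0.12 (SE 0.16). None of these genes passed edgeR after adjustment.

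Of the 76 members that the same gene table holds, RPS28 is entered there as a long non-coding RNA, and 27 have small nucleolar RNA genes within their span, as is common for ribosomal protein introns. The median log2 fold change was -0.43 for these 27 hosts and -0.50 for the other 49 tested members. A further protein-coding gene overlaps 9 members in that table, among them RPL9 with LIAS, RPL27 with IFI35 and RPL23A with RAB34, and since the strand setting of the counts is not given in the sources used here, their values may hold reads of both genes. Reads that fit several near-identical processed copies could also be split or lost, so levels of single members are uncertain.

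TOP mRNAs outside the family lay on both sides of 0. Of 20 TOP mRNAs and elongation or initiation factors 10 were lower and 10 higher in luteal libraries, with a median log2 fold change of -0.09. NACA, which binds nascent chains at the ribosome, averaged 341 ± 58.7 CPM in luteal and 489 ± 150 CPM in follicular libraries (log2 fold change -0.52, SE 0.21), EIF3L 128 ± 8.95 CPM and 151 ± 18.3 CPM (log2 fold change -0.24, SE 0.10), and VIM, the filament protein vimentin, 1023 ± 82.3 CPM and 875 ± 34.7 CPM (log2 fold change 0.23, SE 0.09), each in the same order. EEF1A1, the factor that brings aminoacyl-tRNA to the ribosome and itself a TOP mRNA, was chosen after its values were seen. It had 1555, 1945, 1722, 2109 and 1829 CPM in luteal libraries 1 to 5 and 966, 1573, 1084, 1541 and 1904 CPM in follicular libraries 1 to 5 (log2 fold change 0.37, SE 0.18; edgeR adjusted p = 0.426). Follicular 1 and 3, the highest libraries of the ribosomal protein genes, were the lowest for EEF1A1.

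Ribosome biogenesis genes were lower in luteal libraries for 20 of 25, with a median log2 fold change of -0.24. NOP10, a protein of the RNA-modifying H/ACA particles, had a log2 fold change of -0.51 (SE 0.17), POLR1A, the largest subunit of RNA polymerase I, -0.25 (SE 0.08), and BOP1, a large-subunit assembly factor, -0.40 (SE 0.13). Of 16 genes of mTORC1 and TOP control 7 were lower and 9 higher (median 0.05), with EIF4EBP1, a translation repressor that mTORC1 inactivates, at -0.49 (SE 0.20), RPS6KB2, an S6 kinase, at -0.33 (SE 0.16) and LARP1, which binds the TOP tract, at 0.12 (SE 0.07). Of the 76 genes of mitochondrial ribosomal proteins tested 68 were lower in luteal libraries (median log2 fold change -0.30). MRPL17 was listed under both its symbol (log2 fold change -0.33) and LOC101116085 (-0.0017), so the genes are not all different proteins. Of 56 nuclear genes of the respiratory chain and ATP synthase, nearly all with NDUF or ATP5 symbols, 55 were lower (median -0.45). Of 8 genes of the mitochondrial chromosome that encode parts of these complexes, 3 were lower and 5 higher (median 0.26). MRPL22 at -0.47 (SE 0.15), MRPS5 at -0.39 (SE 0.13) and MRPS25 at -0.76 (SE 0.26) had the smallest p of the mitochondrial ribosome, and ATP5MK at -0.55 (SE 0.19), NDUFA4 at -0.57 (SE 0.20) and NDUFB6 at -0.37 (SE 0.13) of the respiratory list. None of the genes in these lists passed edgeR after adjustment, and whether any list differed from the ribosomal protein genes was not tested.

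**Figure D5:**
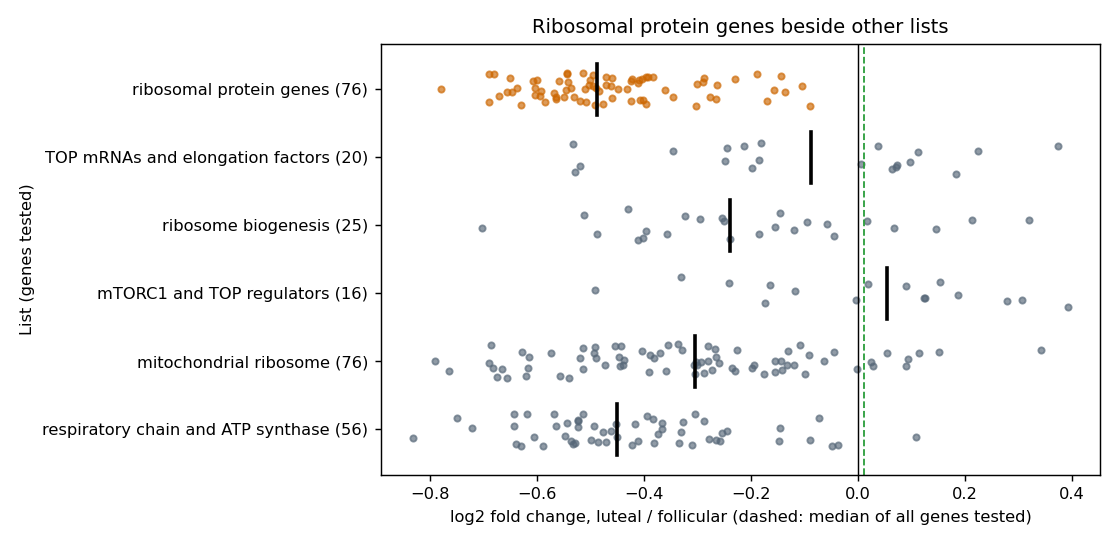
Log2 fold change of luteal over follicular for each tested gene (points) of the ribosomal protein family and of 5 other lists, with the list's median as a black bar and the median of all genes tested (0.01) as a dashed line; points are spread vertically for legibility only. Ribosomal protein genes lie below 0 throughout, with a median of -0.49, beside medians of -0.30 for the mitochondrial ribosome and -0.45 for the nuclear genes of the respiratory chain and ATP synthase. The TOP mRNAs and the mTORC1 list lie on both sides of 0.

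Outside the family, the genes whose pattern over the 10 libraries was most like its profile were CCDC28B, LOC101115926, PFDN5, PHPT1, MRPS16, MRPS34, LOC114113935, BAD, SNRPD3 and SNRNP70, at a root mean square distance of 0.04 to 0.06 on the log2 scale. PFDN5 is a subunit of the chaperone prefoldin, MRPS16 and MRPS34 are mitochondrial ribosomal proteins, BAD is a promoter of cell death, and SNRPD3 and SNRNP70 are spliceosome proteins. LOC101115926 is named C23H18orf32 in the RefSeq gene table. It had 1310.0, 1139, 929, 1418 and 882 CPM in luteal libraries 1 to 5 and 1908, 1194, 1943, 1672 and 878 CPM in follicular libraries 1 to 5 (log2 fold change -0.42, SE 0.22). In the human genome the C18orf32 gene lies beside RPL17, with which it shares a read-through transcript, and RPL17 was not among the 77 genes. The values of LOC101115926 may therefore hold reads of a ribosomal protein gene, which was not tested. Closer to the profile than the median member (distance 0.09) were 62 genes outside the family, a small part of the 18276 genes tested.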

How the data were processed

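Gene-level reads were measured in 10 libraries, 5 luteal and 5 follicular. Per the labels' protocols the libraries came from a stranded mRNA kit (TruSeq) after TriReagent extraction. Tools named in the submitters' processing notes are TopHat2 2.1.1 and Bowtie2 2.3.5.1, featureCounts 2.0.0, SAMtools 1.9, FastQC and bcl2fastq 2.20. No source used here gives the genome build, the strand setting or the treatment of multi-mapping reads. Raw counts per gene, not normalised, are what the authors deposited, in 1 table.

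Counts were analysed in R 4.3.3 with edgeR 4.0.16 (two-sided quasi-likelihood F-test on phase, all 10 libraries) after filterByExpr and TMM scaling, with Benjamini-Hochberg adjustment over 18276 genes. The filter asked for a CPM equal to 10 reads at the median library size in as many libraries as the smaller phase holds. It also asked for 15 reads in total. Standard errors are the fold change divided by the root of F. Log2 CPM used a prior count of 2. Alternatives were DESeq2 1.42.0, limma 3.58.1 (voom), other scalings and filters, a replicate term and leaving out libraries. The fit was tested on simulated data. No pair of libraries agreed within sampling noise (chi-square over genes).

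The family, the lists and the rule for named genes were chosen with earlier results of these data known. The rule takes the 5 members at each end of fold change and of distance from the family profile, the 5 with the smallest p, the 5 with the most reads, symbol pairs, stalk proteins, RPSA, RPS6 and RPS27A, and of each list the 3 smallest p. A planned description by protein length was not run for want of lengths, and levels of different genes are not compared. Copies of family members listed without a symbol of that kind, RPL17 and RPL41 were not analysed here. A few members are not reported here by name or drawn gene by gene, but stay in every count and median.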

Additional observations from a re-analysis of the deposited data

Results flagged for a closer look

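RPL5 in luteal 4, at 1063 CPM, stood apart from the other luteal libraries, of which the next was 919 CPM. Its gap to the nearest library was 0.781 of the range of its phase, above Dixon's 95% limit of 0.71 for 5 samples. It was the 1 group picked out among 154 groups of 5 libraries (76 genes and the family's share of reads, in each phase), where chance gives about 7.7.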

How the results depend on the processing

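The number of ribosomal protein genes called after adjustment was 0 under every alternative run, and the median log2 fold change of members stayed below 0, from -0.65 (without follicular 5) to -0.37 (without follicular 3) with 1 library left out, and -0.18 without follicular 1 and 3. All 76 genes stayed lower except without follicular 1 and 3, where the log2 fold change of RPL37A was 0.0098, the log2 fold change of RPL3 0.0063, that of RPL36 0.022, that of RPL4 0.0229 and that of RPL13 0.0314. The difference in share of library count held by members was -1.52 percentage points, with 1 library left out from -2.21 to -1.09, and -0.37 without follicular 1 and 3. The count at an unadjusted edgeR p under 0.05 was least steady. The share of all genes lower in luteal libraries at that p, in brackets, also changed. The count was 20 (7.12% of all genes) with every library, 0 without follicular 1 (3.1%), follicular 3 (2.77%), luteal 2 (3.4%), luteal 3 (2.94%) or luteal 5 (3.24%), and 1 without follicular 4 (3.44%). It was 24 without luteal 1 (10.4%), 37 without follicular 2 (7.01%), 50 without luteal 4 (10.1%) and 68 without follicular 5 (16.2%). By tool it was 31 of 77 with DESeq2 (6.42% of all genes) and 4 with limma-voom (4.80%). Without a filter it was 32 (5.93%). It was 56 with the replicate block (12.6% of all genes), where the median was -0.44 and the lowest adjusted p 0.143. Same-numbered libraries share only a number: their deviations correlated at -0.333 to 0.63, and 1 of 5 matched its own number best. RLE, upper-quartile and member-free TMM scaling gave medians of -0.494 to -0.468. Leaving out mitochondrial genes (median -0.487) was an alternative chosen after seeing the data. The cause of these changes was not tested.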
